A study of Mus musculus with 8 samples.

Results

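The genes described here are the SNARE families, the synaptotagmins and their partners in exocytosis, in mouse pituitary gonadotropes. All entries of the count table whose symbol belongs to the *Syt*, *Sytl*, *Stx*, *Stxbp*, *Snap*, *Vamp*, *Cplx*, *Unc13*, *Rims* and *Cadps* families, or is *Nsf*, *Napa* or *Napb*, were taken, which gave 73 of 55523 entries. The choice rested on the names alone, so it also took *Snap91*, which encodes a clathrin adaptor and no SNARE. Pituitaries of Ad4BP-BAC-EGFP mice were the source of the EGFP-positive cells, whose RNA was sequenced in 4 female and 4 male samples after sorting. The transgene places EGFP under the regulatory sequence of *Nr5a1* (Ad4BP) on a bacterial artificial chromosome, and both sexes carried it, with no treatment and no deletion named in the labels. The labels give neither the age of the mice nor whether a sample is 1 animal or a pool, so the p-values measure only the spread between these samples. The study left out male replicate 1 after its expression was found to differ from the other males, and it is shown apart from males 2 to 4.

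Gonadotropes store luteinizing hormone and follicle-stimulating hormone in dense-core granules and release them when gonadotropin-releasing hormone raises calcium in the cell. Fusion of a granule needs a SNARE complex, which a vesicle SNARE (a VAMP) forms with a syntaxin and a SNAP-25 family protein on the plasma membrane. Munc13, RIM and CAPS proteins dock and prime the granule, complexins hold and release the complex, synaptotagmins sense calcium, and NSF with alpha-SNAP takes the used complex apart.

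The 8 samples held 18774578 to 31302588 counts each. Levels are given as CPM, the count of a gene relative to the total of its sample, after TMM scaling (a trimmed mean of the gene-wise ratios between samples). A floor of 3 counts was 0.0958 to 0.160 CPM before TMM scaling. It covers counting error only, because PCR copies of 1 molecule are counted separately. *Nr5a1* was 16.3 CPM in male 1, between 862 and 1266 CPM in the females and between 584 and 801 CPM in males 2 to 4. *Malat1*, a nuclear RNA, was 110079 CPM in male 1 and between 7790 and 15167 CPM in the other 7 samples. The 6 gonadotrope markers summed to between 23792 and 36800 CPM in the females and between 71144 and 77936 CPM in males 2 to 4, mostly *Cga* and *Fshb*. Of the 6, 1 (*Fshb*) was past the threshold between the sexes. *Nr5a1* alone of the 6 was lower in males 2 to 4 (log2 fold change −0.61, adjusted p = 0.130 by edgeR). The 10 markers of the other hormone-producing cells summed to more than the 6 gonadotrope markers in each of the 8 samples. They summed to between 36668 and 98346 CPM in the females and between 94114 and 187275 CPM in males 2 to 4, mostly *Gh*, *Prl* and *Pomc*. The 3 neuronal markers summed to between 34.3 and 54.8 CPM in these 7 samples.

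RefSeq held 67 promoter entries for 56 of the 73 genes, and 1 each is shown for 4 of the genes past the threshold between the sexes. *Stx7*, also past it, had 2 entries, neither with a match to the motifs below, and they are not printed. Each line gives the 250 bases before the annotated start on GRCm38.p6, read 5′ to 3′ on the strand of the gene, and capitals mark a match to 1 of 4 motifs searched on both strands.
Unc13c, chr9:73969038-73969287, minus strand: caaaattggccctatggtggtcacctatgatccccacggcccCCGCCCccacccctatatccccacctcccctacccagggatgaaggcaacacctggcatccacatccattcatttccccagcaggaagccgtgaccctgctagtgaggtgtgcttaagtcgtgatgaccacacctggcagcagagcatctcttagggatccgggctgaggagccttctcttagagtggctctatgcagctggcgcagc
Snap23, chr2:120567421-120567670, plus strand: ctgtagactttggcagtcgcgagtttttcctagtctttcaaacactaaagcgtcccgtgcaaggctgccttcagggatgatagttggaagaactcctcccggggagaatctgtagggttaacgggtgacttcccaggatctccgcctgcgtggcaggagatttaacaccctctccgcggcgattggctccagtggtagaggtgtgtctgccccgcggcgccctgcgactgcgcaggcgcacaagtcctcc
Sytl3, chr17:6658809-6659058, plus strand: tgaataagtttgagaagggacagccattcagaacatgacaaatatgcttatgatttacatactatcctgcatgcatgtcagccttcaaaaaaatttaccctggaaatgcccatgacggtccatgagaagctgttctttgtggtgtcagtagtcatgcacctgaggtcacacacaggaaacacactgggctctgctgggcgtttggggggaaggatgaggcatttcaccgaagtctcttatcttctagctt
Cplx1, chr5:108550028-108550277, minus strand: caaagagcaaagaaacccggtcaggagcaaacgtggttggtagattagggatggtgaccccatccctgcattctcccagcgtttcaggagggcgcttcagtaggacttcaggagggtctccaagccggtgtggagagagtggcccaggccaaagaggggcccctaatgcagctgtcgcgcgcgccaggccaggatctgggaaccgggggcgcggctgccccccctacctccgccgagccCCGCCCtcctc
The motifs were the GC box (GGGCGG), the E-box (CACGTG), the NR5A1 monomer site (CAAGGTCA) and the cyclic AMP response element (TGACGTCA), none of which holds another. Counted from the start, *Cplx1* had a GC box at −11 and *Unc13c* had one at −208, whereas *Snap23* and *Sytl3* had no match in these windows. Over the family, the GC box was in 38 of the 67 promoters (56.7%, against 32.7% of 32851 mouse promoters of the same length) and the E-box in 11 (16.4%, against 6.02%). The median GC content was 60.8% in the family and 52.4% over all promoters. The NR5A1 site was in 3 promoters (4.48%, against 1.33%), at −167 in *Syt2* and at −174 and −211 from a pair of starts of *Syt6*, whose windows overlap and hold the same site. Entries of 1 gene can share a match in this way in all of these shares. The cyclic AMP response element was in 1 promoter, that of *Stxbp3* (1.49%, against 1.55%). These matches are descriptions of letters and not of binding.

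Most of the machinery was expressed in every sample. In the 4 female samples and males 2 to 4, 62 of the 73 genes never fell under 1 CPM, and 46 never fell under 5 CPM. The other 11 genes were *Cplx1*, *Cplx4*, *Rims1*, *Syt2*, *Syt8*, *Syt10*, *Sytl2*, *Sytl5*, *Unc13d*, *Vamp5* and *Vamp9*, and *Syt8* had 0 counts in all 8 samples, which allows up to the floor of each library. Levels of different genes were compared as CPM per kilobase of exonic length (GENCODE M21), as the mean of these 7 samples. *Vamp7* was the 1 gene of the 73 without a matched length, so it has no level on this scale and no place in the order.

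*Syt4* had the highest level of the family, at 350 CPM per kilobase. *Syt4* encodes a synaptotagmin of dense-core granules whose first C2 domain lacks a calcium-binding residue. Its level was between 201 and 287 CPM per kilobase in the females and between 450 and 522 CPM per kilobase in males 2 to 4, above every other member in each of the 7 samples. *Snap47* followed at 118 CPM per kilobase, *Vamp8* at 68.4, *Napa* at 57.1 and *Snap25* at 55.7. With the length of the longest transcript in place of all exonic bases, *Syt4* and *Snap47* stayed first, and 8 of the first 10 genes were shared, with *Stx5a* and *Stx3* in place of *Stx12* and *Cplx2*.

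**Figure D1:**
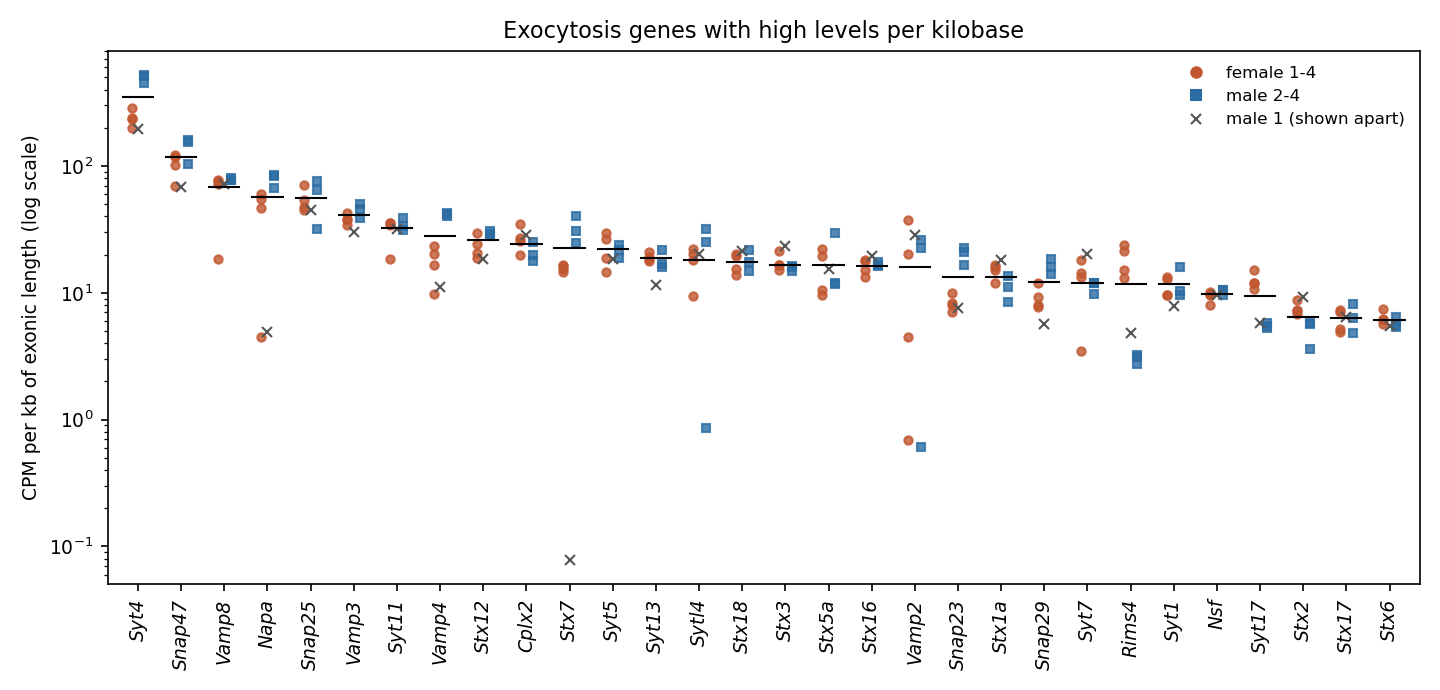
Levels of 30 genes among those highest per kilobase, on a logarithmic axis of CPM per kilobase of exonic length. Each point is a sample (4 females, males 2 to 4 and male 1), and the black line is the mean of the 7 samples without male 1. *Syt4* stands above all others, and single samples of *Vamp8*, *Napa*, *Sytl4*, *Vamp2* and, in male 1, *Stx7* lie far below the rest.

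Among the plasma membrane syntaxins, which carry the SNARE motif on the target membrane, *Stx3* had 16.7, *Stx1a* 13.3 and *Stx2* 6.48 CPM per kilobase. Of the SNAP-25 family, *Snap47* and *Snap25* lay above *Snap23*, the form found in most tissues, which had 13.3 CPM per kilobase. *Snap25*, the form of neurons and endocrine cells, was 368 ± 77.4 CPM (SD, n = 4) in the females and 392 ± 157 CPM (n = 3) in males 2 to 4. Among the vesicle SNAREs, *Vamp8*, which serves late endosomes and regulated granules, was followed by *Vamp3* at 41.1 and *Vamp4* at 27.9 CPM per kilobase, and *Vamp2*, the synaptic form, had 16.0. The syntaxin-binding genes *Stxbp3* and *Stxbp2* had 5.59 and 3.55 CPM per kilobase. The tomosyn gene *Stxbp5*, *Stxbp4* and *Stxbp6* together had 7.996 CPM per kilobase, of which *Stxbp4* gave 4.28.

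The synaptotagmins that bind calcium were led by *Syt5* at 22.0, *Syt7* at 11.9 and *Syt1* at 11.6 CPM per kilobase, all of which are sensors known from secretory cells. *Syt9* had 4.49 CPM per kilobase and *Syt3* had 2.45. *Syt2*, *Syt6* and *Syt10* were each under 1 CPM per kilobase. The other synaptotagmins were led by *Syt4*, *Syt11* at 32.5 and *Syt13* at 18.7 CPM per kilobase. Summed over each class, the 8 calcium-binding genes had 53.7 CPM per kilobase and the 9 others had 416. *Sytl4*, which encodes the granule protein granuphilin, had 18.3 of the 22.3 CPM per kilobase of the 5 synaptotagmin-like genes, followed by *Sytl3* at 2.07 and *Sytl1* at 1.25. *Cplx2* had 24.3 of the 26.1 CPM per kilobase of the complexins, whereas *Cplx1* had 1.05 and *Cplx3*, a form of ribbon synapses, had 0.705. In the priming class *Rims4*, a short RIM protein that consists of little more than a C2 domain, had 11.8 CPM per kilobase. *Cadps* (CAPS), which primes dense-core granules, had 2.95 and *Unc13a* (Munc13-1) had 2.94 CPM per kilobase. *Nsf*, the ATPase that takes SNARE complexes apart, had 9.75 CPM per kilobase, between *Napa* (alpha-SNAP) and *Napb* (beta-SNAP) at 5.80. Among the intracellular syntaxins, *Stx12* had 25.9, *Stx7* 22.6 and *Stx18* 17.6 CPM per kilobase. *Snap91* had 5.90 CPM per kilobase.

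The design implies a comparison of the sexes. Males 2 to 4 were compared with females 1 to 4 by edgeR's quasi-likelihood test, fitted on all genes and with Benjamini-Hochberg adjustment over the 20152 genes tested. Of the 73 genes, 68 passed the filter on low counts, and *Cplx4*, *Rims1*, *Syt8*, *Sytl5* and *Vamp9* were not tested. Of the 68 genes, 9 (13.2%) had an adjusted p under 0.05, against 2.34% of all genes tested. This count was 1 to 6 when a sample was left out (0.421% to 0.865% of all genes), 3 with male 1 in the fit (0.342%), 6 without the filter on low counts (0.562%) and 15 with DESeq2 (11.6%). With the replicate number as a block it was 0, and 0 of all genes were called. *Unc13c*, *Snap23*, *Syt4*, *Sytl3*, *Syt12* and *Stx7* were higher in males (6 of 68, against 0.983% of all genes), and *Rims4*, *Syt17* and *Cplx1* were lower (3 of 68, against 1.35%). At an unadjusted p under 0.05 there were 21 of 68, against 19.9% of all genes. The samples of the sexes did not overlap for 24 of the 68 (35.3%), against 22.3% of all genes. The median of the log2 fold changes (males over females) was 0.02 for the 68 genes and −0.03 for all genes, with 35 of the 68 above 0. In such bulk samples, a change in the share of a cell type and a change of RNA per cell cannot be told apart.

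**Figure D2:**
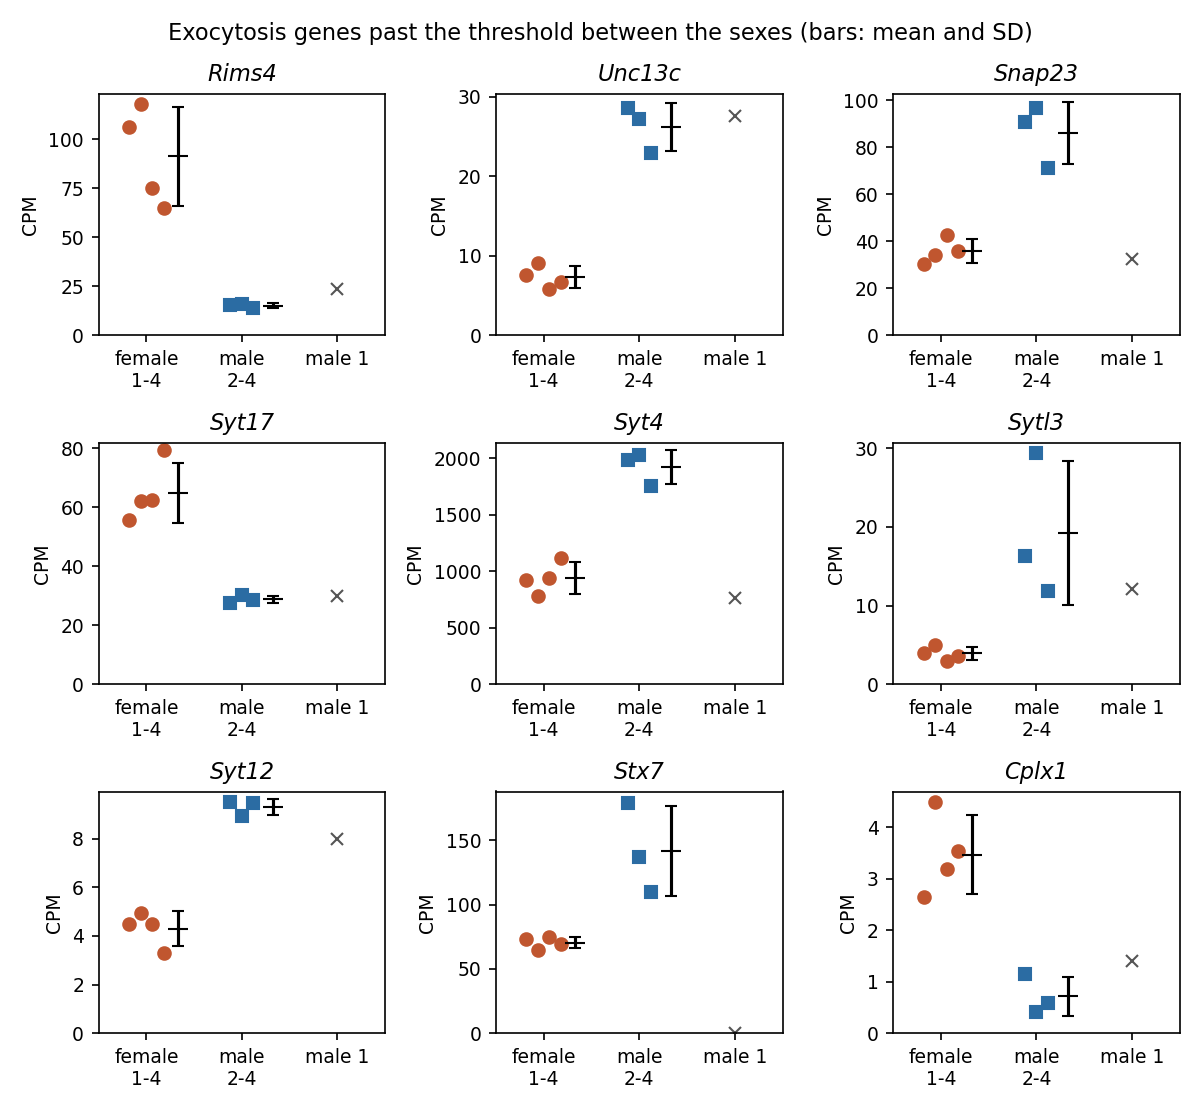
CPM of the 9 genes past the threshold between the sexes, in each female sample, males 2 to 4 and male 1, with bars for the mean and SD of the females and of males 2 to 4. The females and males 2 to 4 do not overlap for any of the 9 genes, and male 1 lies near 0 for *Stx7* and with or below the females for *Snap23* and *Syt4*.

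*Rims4* (chr2:163859751-163918683, minus strand, GRCm38) had the smallest p of the family. Its level was 106, 118, 75.1 and 65.0 CPM in females 1 to 4 and 15.4, 15.9 and 13.7 CPM in males 2 to 4. Every female lay far above every male, and male 1, at 23.7 CPM, was also below the females. The level was 6.21-fold lower in males (log2 fold change −2.64, SE 0.26, adjusted p = 0.0115 by edgeR). Its adjusted p was between 0.0172 and 0.0449 whichever of the 7 samples was left out, and no other member passed in all 7 of these fits.

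*Unc13c* (chr9:73479422-73968966, minus strand) encodes Munc13-3, a Munc13 isoform best known from the cerebellum. It was 7.53, 9.12, 5.80 and 6.74 CPM in the females and 28.6, 27.2 and 22.8 CPM in males 2 to 4. All males were above all females, including male 1 at 27.5 CPM. The level was 3.505-fold higher in males (log2 fold change 1.81, SE 0.20, adjusted p = 0.0161 by edgeR). Without male 2 or without male 3 it no longer passed, with adjusted p up to 0.0592. Of the other 7 priming genes tested, none passed. *Cadps* had a log2 fold change of −0.45, *Rims3* of −0.63 and *Unc13b* of −0.58, with adjusted p between 0.169 and 0.284, and *Unc13a* had 0.04 (SE 0.21).

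*Snap23* (chr2:120567671-120601255, plus strand) was 30.2, 34.3, 42.5 and 36.0 CPM in the females and 90.5, 96.6 and 71.0 CPM in males 2 to 4, which did not overlap. Male 1, at 32.5 CPM, lay within the range of the females. The level was 2.35-fold higher in males 2 to 4 (log2 fold change 1.24, SE 0.17, adjusted p = 0.0279 by edgeR). It no longer passed without female 2, female 4, male 2 or male 3 (adjusted p between 0.0605 and 0.0974) or with male 1 in the fit (0.301). Its relatives did not pass in this edgeR fit, whereas DESeq2 called *Snap29*. *Snap29*, which acts in autophagosome fusion, had a log2 fold change of 0.79 (SE 0.19, adjusted p = 0.0801), *Snap47* had 0.41 (SE 0.24, adjusted p = 0.420) and *Snap25* had 0.06 (SE 0.31, adjusted p = 0.943).

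Of the synaptotagmins, *Syt4* (chr18:31437808-31447406, minus strand) was 918, 782, 938 and 1118 CPM in the females and 1986, 2030 and 1752 CPM in males 2 to 4. The lowest of these males was above the highest female, whereas male 1, at 763 CPM, was below all females. The level was 2.002-fold higher in males 2 to 4 (log2 fold change 1.001, SE 0.14, adjusted p = 0.0293 by edgeR). Of the 7 fits that left out a sample, it passed in 1, without female 4, and the others gave an adjusted p between 0.0547 and 0.104, against 0.410 with male 1 in the fit. *Syt17* (chr7:118380717-118448222, minus strand), which encodes a synaptotagmin without a transmembrane segment, was 55.6, 62.1, 62.6 and 79.4 CPM in the females and 27.6, 30.1 and 28.5 CPM in males 2 to 4. All females were above all males, and male 1 was 29.99 CPM. The level was 2.31-fold lower in males (log2 fold change −1.21, SE 0.17, adjusted p = 0.0281 by edgeR). It passed without female 1 or female 4 and with male 1 in the fit, and it did not without any of the other 5 samples (adjusted p between 0.0592 and 0.100). *Syt12* (chr19:4445908-4477447, minus strand), whose C2 domains are not known to bind calcium, was 4.49, 4.93, 4.51 and 3.29 CPM in the females and 9.496, 8.95 and 9.49 CPM in males 2 to 4. The groups did not overlap, and male 1 was 7.99 CPM. The level was 2.12-fold higher in males (log2 fold change 1.08, SE 0.20, adjusted p = 0.0457 by edgeR). Without any 1 of the 7 samples its adjusted p was between 0.0734 and 0.137, and it was 0.0930 with male 1 in the fit, 0.0615 with library size alone and 0.0749 without the filter on low counts.

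None of the 8 synaptotagmins that bind calcium passed the threshold in this edgeR fit. DESeq2 called *Syt2* and *Syt3*, and edgeR with library size alone called *Syt3*. *Syt1* had a log2 fold change of 0.05 (SE 0.23), *Syt5* of −0.10 (SE 0.26) and *Syt7* of −0.17 (SE 0.49). *Syt3* had −0.86 (SE 0.21, adjusted p = 0.0823). *Syt2*, a fast sensor of synapses, had 37, 8, 14 and 35 counts in the females, 0 counts in each of males 2 to 4 and 40 counts in male 1, with adjusted p = 0.0647 by edgeR. It passed the filter on low counts through the females alone.

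*Sytl3* (chr17:6659093-6738044, plus strand) encodes a Rab27-binding protein. It was 4.02, 5.02, 3.01 and 3.59 CPM in the females and 16.3, 29.4 and 11.9 CPM in males 2 to 4. The males spread more than the females but did not overlap them, and male 1 was 12.1 CPM. The level was 4.79-fold higher in males (log2 fold change 2.26, SE 0.34, adjusted p = 0.0327 by edgeR). It passed without male 4, but not without any other sample (adjusted p between 0.0632 and 0.0863), nor with male 1 in the fit (0.0590). *Sytl2*, which also binds Rab27, was between 0.890 and 6.20 CPM in the females and between 11.2 and 24.3 CPM in males 2 to 4. It did not pass by edgeR (log2 fold change 2.44, SE 0.60, adjusted p = 0.0828), whereas DESeq2 called it.

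*Stx7* (chr10:24149302-24190222, plus strand), a syntaxin of endosomes, was 73.2, 64.8, 74.7 and 69.2 CPM in the females and 179, 137 and 110 CPM in males 2 to 4. These groups did not overlap. Male 1 had 8 counts, or 0.349 CPM, whereas every other sample had at least 1328 counts. The level was 1.97-fold higher in males 2 to 4 (log2 fold change 0.98, SE 0.18, adjusted p = 0.0457 by edgeR), and with male 1 in the fit the log2 fold change was 0.59 (adjusted p = 0.921). It passed without male 4, but not without any other sample (adjusted p between 0.0748 and 0.136), nor with library size alone (0.0687) or without the filter on low counts (0.0749). The other 7 intracellular syntaxins lay between −0.16 and 0.30 and did not pass. The 7 plasma membrane syntaxins had log2 fold changes between −1.12 and −0.18, with a median of −0.56, and none passed in this edgeR fit. *Stx4a*, which pairs with *Snap23* in many cell types, was nearest, at 23.0, 15.2, 14.6 and 20.7 CPM in the females and 7.49, 8.38 and 10.04 CPM in males 2 to 4 (log2 fold change −1.12, SE 0.23, adjusted p = 0.0605). *Stx4a* passed with DESeq2 (adjusted p = 0.00111) and in edgeR with library size alone (adjusted p = 0.0367). Male 1 was 35.5 CPM, above all other samples.

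*Cplx1* (chr5:108518554-108550024, minus strand), the complexin of fast synapses, was the lowest of the 9 genes. It was 2.65, 4.49, 3.19 and 3.54 CPM in the females and 1.14, 0.415 and 0.590 CPM in males 2 to 4, from 29, 11 and 13 counts. The groups did not overlap, and male 1, at 1.40 CPM, was also below the females. The level was 4.93-fold lower in males (log2 fold change −2.30, SE 0.44, adjusted p = 0.0494 by edgeR). Without any 1 of the 7 samples its adjusted p was between 0.0713 and 0.144, and it was 0.138 with male 1 in the fit and 0.0761 without the filter on low counts. *Cplx2* had a log2 fold change of −0.38 (SE 0.23, adjusted p = 0.413).

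No vesicle SNARE and no disassembly gene passed in this edgeR fit, whereas DESeq2 called *Vamp4*. *Vamp4*, a SNARE of the trans-Golgi network and of maturing granules, was 92.4, 75.0, 44.8 and 108 CPM in the females and 185, 194 and 192 CPM in males 2 to 4 (log2 fold change 1.22, SE 0.28, adjusted p = 0.0748). *Vamp3* had a log2 fold change of 0.19 (SE 0.14) and *Nsf* of 0.10 (SE 0.14). The exact two-sided permutation test of mean log2(CPM + 1) over 35 splits gave p = 0.0286, the smallest it can give, for each of the 9 genes past the threshold and for 11 other genes tested, so it does not set the 9 apart. These 20 are 29.4% of the 68, against 13.4% of all genes tested.

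**Figure D3:**
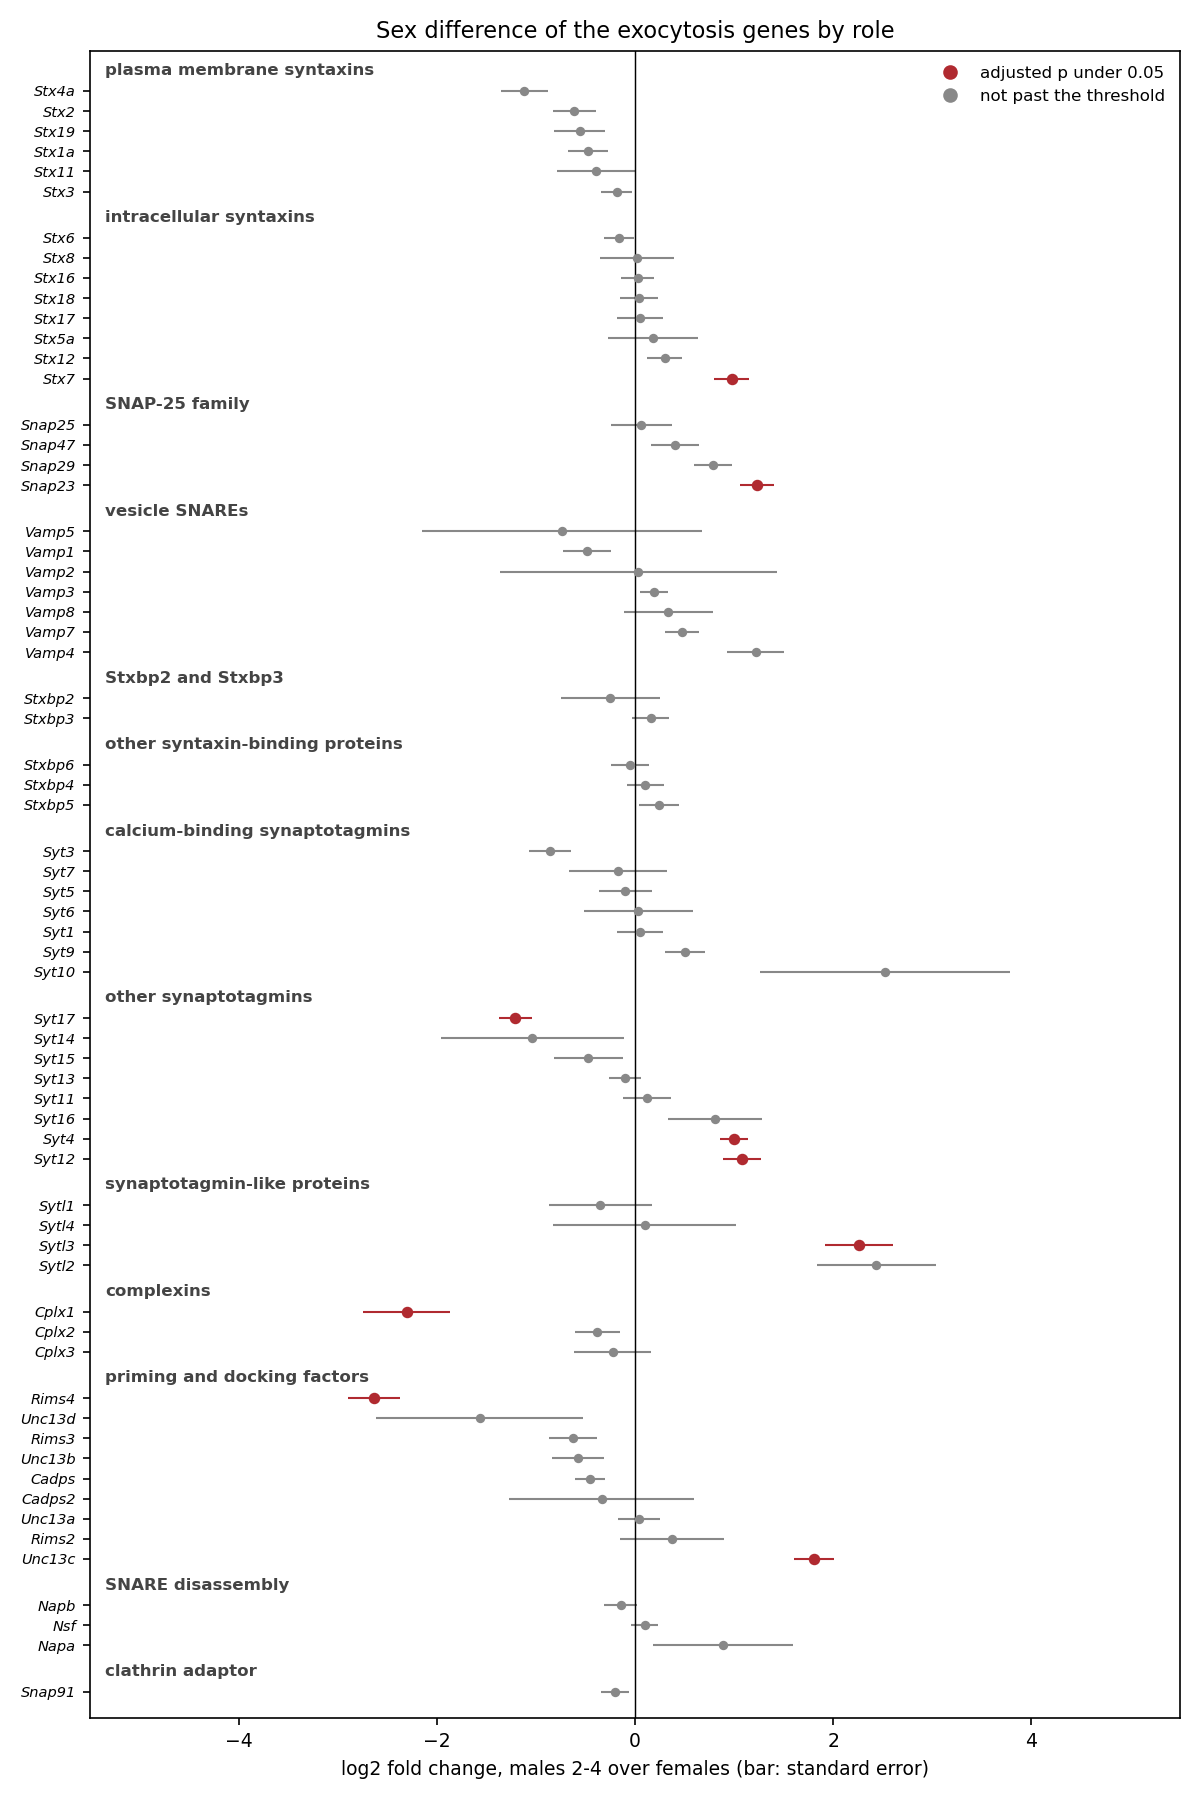
Log2 fold change of males 2 to 4 over the females with its standard error, for 65 of the 68 genes tested, grouped by role. *Syt2* is not drawn because males 2 to 4 had 0 counts. Red points mark the 9 genes with an adjusted p under 0.05 by edgeR, and the plasma membrane syntaxins drawn lie below 0 without passing in that fit.

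The sums of cell markers overlapped between the sexes for 9 of 14 marker lists. Among these, the lactotrope sum was between 4671 and 18125 CPM in the females and between 6227 and 15681 CPM in males 2 to 4, and the corticotrope sum between 12451 and 22066 CPM and between 10173 and 28642 CPM. The melanotrope, pituicyte, endothelial, stromal, immune, erythroid and neuronal sums also overlapped. Besides the gonadotrope markers, 4 sums did not. The 2 somatotrope markers, mainly *Gh*, summed to between 12397 and 57867 CPM in the females and between 65338 and 142305 CPM in males 2 to 4, without overlap, and neither passed the threshold. The thyrotrope marker *Tshb* was between 20.9 and 83.5 CPM in the females and between 235 and 339 CPM in males 2 to 4 (adjusted p = 0.0525), and *Pou1f1* was between 16.3 and 35.6 CPM and between 62.7 and 142 CPM (adjusted p = 0.0494). The 2 stem cell markers summed to between 243 and 382 CPM in the females and between 138 and 172 CPM in males 2 to 4, with *Sox9* past the threshold (log2 fold change −1.02, adjusted p = 0.0417). The exocytosis genes are also used in these other cells, and the part of the other cell types in the 9 differences was not tested. Counting did not use strand. Of the 9 genes, 3 share exonic bases with a gene on the opposite strand. These are *Sytl3* with *Ezr* (between 213 and 325 CPM in the 7 samples, log2 fold change −0.10), *Syt4* with *Gm26658* (at most 15.9 CPM, log2 fold change 1.40, adjusted p = 0.0748) and *Syt12* with *A930001C03Rik* (at most 1.61 CPM). Reads in the shared bases cannot be told apart.

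Beyond the named families, 50 genes of tethering, Rab3 and Rab27, Golgi SNAREs, synaptic vesicles and the active zone were read from the same fit. Of the 49 tested, 4 (8.16%) passed the threshold, against the 2.34% of all genes. In edgeR, none of the 49 passed when any 1 of the 7 samples was left out (0 in each fit, with 12 to 20 at an unadjusted p under 0.05, where all genes had 14.6% to 20.1%). None passed with male 1 in the fit (0, with 6 of the 49 at an unadjusted p under 0.05, against 10.2% of all genes). None passed without the filter on low counts (0, with 18 of the 49, against 13.7%). DESeq2 called 11 of the 49, against 11.6% of all genes. *Erc2*, which encodes an active zone scaffold, had a log2 fold change of 1.08 (SE 0.17, adjusted p = 0.0354), and the Golgi SNARE *Bet1* had 0.89 (SE 0.17, adjusted p = 0.0494). *Baiap3*, a Munc13-related gene of dense-core granule traffic, had −1.38 (SE 0.23, adjusted p = 0.0378), and *Sv2a*, a vesicle membrane protein, had −0.91 (SE 0.15, adjusted p = 0.0378). *Baiap3* was between 90.4 and 133 CPM in the females and between 38.1 and 52.8 CPM in males 2 to 4. *Rab27b*, whose product binds the *Sytl* proteins, was 20.1, 45.1, 22.6 and 20.9 CPM in the females and 133, 160 and 46.0 CPM in males 2 to 4 (log2 fold change 2.01, SE 0.48, adjusted p = 0.0769). The median log2 fold change of the 49 genes was 0.08.

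Some members were uneven between samples of the same sex. The coefficient of variation over 59 genes with a mean of at least 5 CPM had a median of 19.4% in the females and 16.5% in males 2 to 4, close to the 20.2% and 16.4% of all such genes. It ranged from 3.84% (*Stxbp3*) to 111% (*Cadps2*) in the females. For 7 of the 59 genes (11.9%), a sample differed more than 4-fold from the median of the others of its sex, against 14.2% of all genes. For 5 of them that sample was below the others (8.47%, against 12.8%). Neither share of the family was above that of all genes. These 7 genes were chosen after their values were seen.

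*Vamp2* was 142, 77.0, 2.61 and 17.2 CPM in females 1 to 4 and 98.9, 2.30 and 85.7 CPM in males 2 to 4. Its low samples came from both sexes, and its log2 fold change had an SE of 1.40. *Vamp5*, a SNARE of muscle and other non-neuronal cells, was 2.44, 29.3, 0.522 and 33.4 CPM in the females and 2.80, 25.1 and 2.72 CPM in males 2 to 4. Female 3 was low for both *Vamp2* and *Vamp5*, whereas the other low samples were not shared. *Vamp8* was between 165 and 185 CPM in all samples but female 4, which had 42.4 CPM.

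*Napa* was 176, 227 and 206 CPM in females 1 to 3 and between 252 and 319 CPM in males 2 to 4. It was 16.8 CPM in female 4 and 18.7 CPM in male 1, both more than 9-fold below all others. *Sytl4* was 4.40 CPM in male 4, against 129 and 163 CPM in males 2 and 3 and between 48.1 and 114 CPM in the females. *Syt14* was 63.0 CPM in male 4, against 4.93 and 4.64 CPM in males 2 and 3 and between 38.8 and 58.0 CPM in the females. *Cadps2* (CAPS2) was 45.0 CPM in female 3 and 28.6 CPM in male 4, against between 3.66 and 8.39 CPM in the other females and males 2 and 3. None of these 7 genes was among the 9 past the threshold. Without male 4, *Syt14* passed it, with a log2 fold change of −3.40 (edgeR, adjusted p = 0.00891), against −1.04 (adjusted p = 0.613) with male 4.

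**Figure D4:**
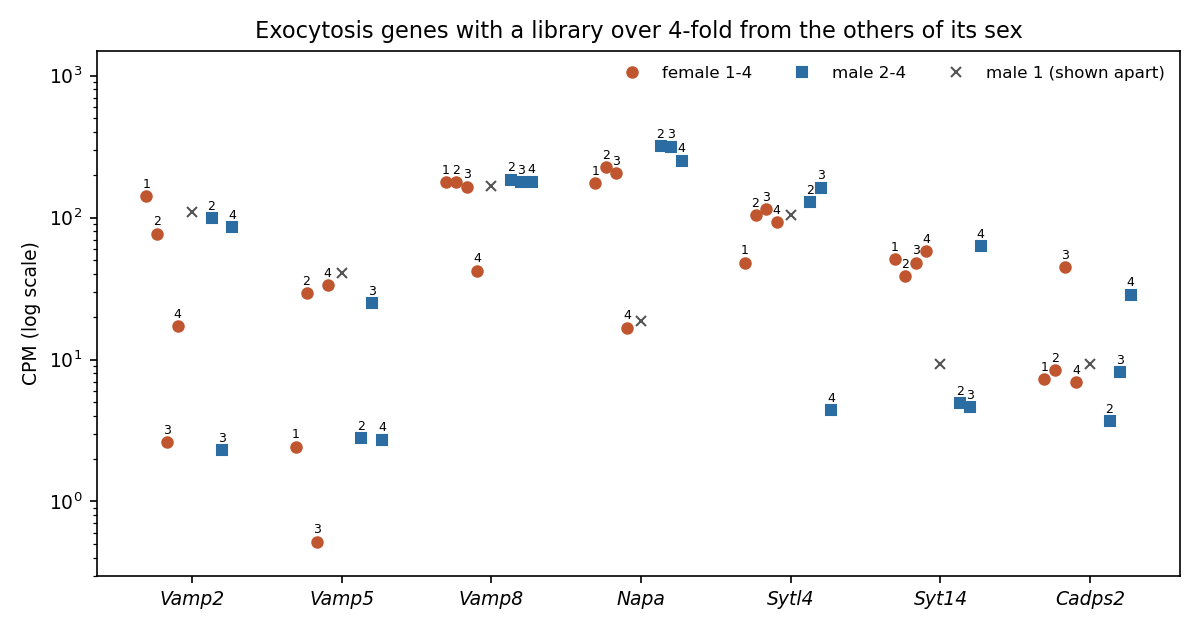
CPM on a logarithmic axis for the 7 genes with a sample more than 4-fold from the median of the others of its sex. Numbers give the replicate of each female sample and of males 2 to 4, and crosses give male 1. The sample that stands apart differs from gene to gene, for example female 4 for *Vamp8* and *Napa* and male 4 for *Sytl4* and *Syt14*.

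Male 1 was set against the mean of males 2 to 4 without a test, since it is 1 sample. Of 69 members with at least 1 CPM in some male, 20 (29.0%) differed more than 2-fold on the scale of CPM + 1, against 23.4% of all genes. Of these, 11 were lower in male 1 (15.9%, against 11.7%) and 9 were higher (13.0%, against 11.7%). *Stx7* was the farthest below, and it was followed by *Napa*, *Vamp4* at 50.9 CPM against 190, *Stx8* at 3.06 against 12.9, *Snap29* at 19.5 against 55.9, *Vamp7* at 29.6 against 84.1, *Snap23* and *Syt4*. *Stx4a* was the farthest above, at 35.5 CPM against 8.63. It was followed by *Vamp5* at 40.7 against 10.2, *Vamp1* at 29.7 against 9.10, *Syt2* at 1.75 against 0, *Unc13d* at 3.06 against 0.509, *Stx19* at 6.68 against 1.94, *Unc13b* at 56.6 against 22.0 and *Rims2* at 56.2 against 25.2 CPM. *Snap25*, *Syt11*, *Nsf* and *Cadps*, chosen after their values were seen, were each within 1.5-fold of the mean of the other males. Of the 9 genes past the threshold, male 1 lay within the range of males 2 to 4 for 3 (*Syt17*, *Sytl3* and *Unc13c*) and within the range of the females for 1 (*Snap23*). The part of the low *Nr5a1* and high *Malat1* of this sample in these values was not tested.

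**Figure D5:**
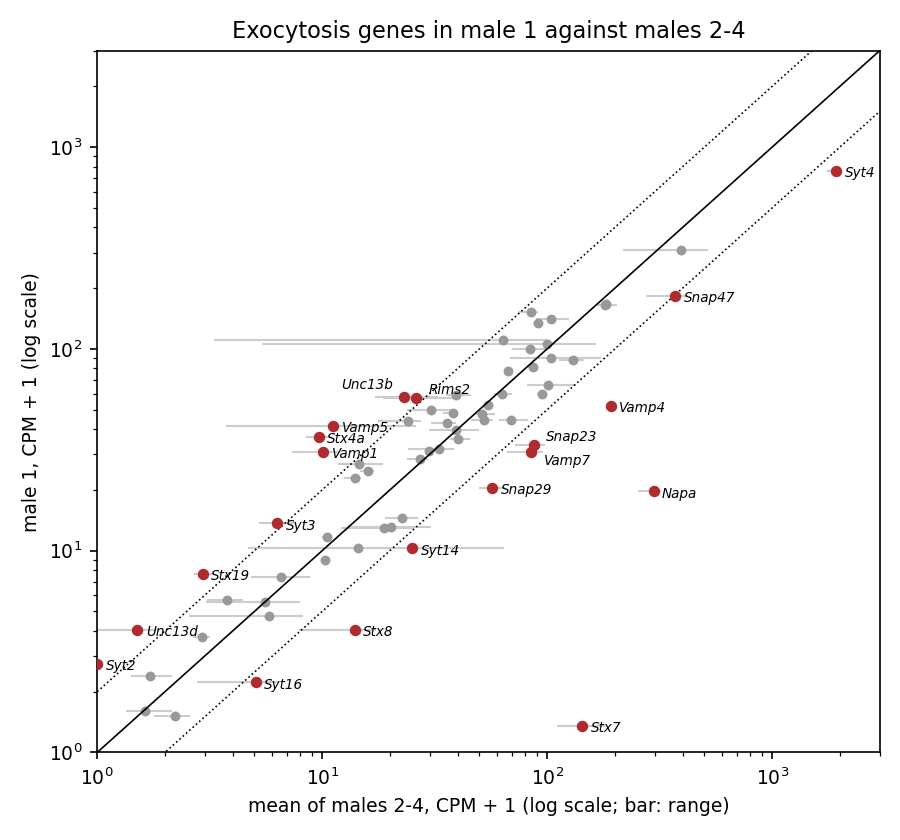
CPM + 1 in male 1 against the mean of males 2 to 4, both on logarithmic axes, with horizontal bars for the range of males 2 to 4. The solid line is equality and the dotted lines are 2-fold, and the 20 named genes in red lie beyond them, with *Stx7* the farthest.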

How the data were processed

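The authors deposited raw read counts per gene, without normalization, in 1 table of 8 samples. According to the methods of the study, total RNA of sorted EGFP-positive cells was made into libraries with a low-input kit and sequenced from both ends. Reads were trimmed with cutadapt, mapped to mm10 with STAR and counted with featureCounts, all with default parameters, a setting of featureCounts that does not use strand. The annotation is not given in the sources used here. Of the entries, 28933 carry an MSTRG name, the form StringTie gives, which the methods do not mention. How reads shared by overlapping genes were counted was not checked.

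From these counts, CPM were computed with edgeR (version 4.0.16) and TMM factors over the 8 samples. The sexes were compared in males 2 to 4 and females 1 to 4 with sex as the only term, after filterByExpr, by glmQLFit and glmQLFTest in R 4.3.3 with a threshold of 0.05 on the Benjamini-Hochberg adjusted p. The standard error was the absolute log2 fold change divided by the square root of F. Exonic lengths came from GENCODE M21 and promoters from RefSeq tables, both on GRCm38. Python 3.11.15 with pandas 2.3.3, scipy 1.17.1 and matplotlib 3.10.9 was used for the other steps. Genes named with values were all those past the threshold, the 10 with the smallest p, the 3 with the highest level per kilobase of each role, and up to 8 in each direction in male 1. Further genes given with values, such as *Sytl2*, *Syt3*, *Syt9*, *Rims3* and *Rab27b*, were chosen after their values were seen. The family, the lists and these rules were chosen with earlier results of these data known. As alternatives, DESeq2 (version 1.42.0), scaling by the upper quartile or by library size only, a filter of 1 count in total or of 10 in each sample, a fit of all 8 samples, the replicate number as a block, robust dispersion and the omission of each sample were tried. Samples of the whole pituitary were not used here. Single values of a few members of the family are not reported here.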

Additional observations from a re-analysis of the deposited data

Results flagged for a closer look

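Dixon's test was run for each of the 73 genes in the 4 samples of each sex, where the highest had at least 1 CPM. In 13 of 136 such sets (9.56%), the highest or lowest sample stood apart from the others, against 10.5% over all genes, and chance alone gives about 1 in 20. Male 1 was that sample in 5 of the 69 male sets (7.25%), against 8.65% over all genes. In male 1, *Stx4a* was 35.5 CPM against 7.49 to 10.04 in males 2 to 4, *Stx3* 133 against 85.1 to 93.2, *Stx19* 6.68 against 1.68 to 2.34, *Vamp4* 50.9 against 185 to 194, and *Syt2* 1.75 against 0 in each. Among the other male samples, *Snap91* was 57.7 CPM in male 3 against 46.4 to 46.7, and *Syt14* was 63.0 CPM in male 4 against 4.64 to 9.26. Among the females, female 4 stood apart for *Vamp8* (42.4 CPM against 165 to 178), *Vamp1* (9.38 against 13.4 to 13.6) and *Rims2* (38.6 against 11.8 to 13.5). Female 3 stood apart for *Cplx3* (3.68 CPM against 1.51 to 1.84) and *Cadps2* (45.0 against 6.92 to 8.39), and female 1 for *Syt11* (96.5 against 177 to 186).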

How the results depend on the processing

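The sign of the log2 fold change of *Stx4a* and of the 9 genes past the threshold was the same under all 15 alternatives, but the calls were not. The number of these family genes called was 15 with DESeq2, which added *Snap29*, *Stx4a*, *Syt2*, *Syt3*, *Sytl2* and *Vamp4*, 3 with all 8 samples (*Rims4*, *Syt17* and *Unc13c*) and between 1 and 6 when a sample was left out, and *Rims4* was the sole one without male 2 or without male 3. The 6 without male 4 included *Syt14*. It was 6 without the filter on low counts and 9 with upper-quartile scaling, with at least 10 counts, with robust dispersion and with library size alone. Library size alone shared 7 genes, added *Stx4a* and *Syt3*, and moved the median of all genes to −0.24 (4 higher and 5 lower). Over all genes, 471 were called, against 2329 with DESeq2, 808 with library size alone (16.5% of them higher in males, against 42.0%), 177 without the filter, 67 with all 8 samples and between 88 and 171 when a sample was left out. Of the 49 further exocytosis genes tested, 4 were called, against 11 with DESeq2, and edgeR called 0 without the filter, with all 8 samples and in each of the 7 fits that left out a sample, where 6 to 20 of them had an unadjusted p under 0.05. The replicate block called 0 genes in edgeR, 0 of the family and 0 of the further list, with 2954, 18 and 14 at an unadjusted p under 0.05. The labels give no sign that a number marks a shared litter or day. Over all genes tested, the deviations of the 3 same-numbered pairs from the means of their sex correlated between −0.0282 and 0.00185. These correlations cannot exclude a shared litter or day, so whether the numbers pair the samples is not known. The smallest adjusted p of *Rims4* over the alternatives was 1.29e-17 and the largest 0.196, under the block. Male 1 differed more than 2-fold from the other males for 20 genes, 21 with library size alone and 19 with DESeq2 size factors. The depth limits values under the floor of 3 counts, which among the genes tested touches *Syt2* in males 2 to 4, *Syt10* in females 1 and 4 and *Unc13d* in male 3, and it touches the 5 genes not tested.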
